A study of Mus musculus with 10 samples.

Results

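The genes described here are 10 markers of stem-like, intestinal, injury-associated and duct-like epithelium: Lgr5, Ascl2, Axin2, Cdx2, Cdkn2a, Clu, Wfdc2, Gpx2, Krt7 and Krt19. They were taken as a list, 10 of the 32285 genes in the count table, and all 10 had UMIs (unique molecular identifiers, each counting 1 captured RNA molecule). They were read in epithelial cells picked by other genes. A cell passed this gate with at least 1 UMI of the adhesion molecule Epcam and at least 1 UMI of the keratins Krt8 or Krt18, and 766 of 26229 analysed cells did.

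The cells came from mouse livers carrying metastases of colorectal cancer. The mice had received a control lentiviral vector (Control, livers 11 and 25), one carrying the interferon IFNa (IFNa, livers 18 and 23), or IFNa together with anti-CTLA-4 antibody (IFNa + aCTLA4, liver 22, called the combination). Liver metastases were common to all 3 groups, and the labels name the vector for Control and IFNa. Livers were digested to single cells and viable cells were sorted by dye exclusion with no antibody, so the shares of cell types also carry what digestion and sorting left. The mouse strain, age, tumour line and vector promoter are not given in the sources used here, nor whether every liver is a separate mouse. The p-values therefore rest on how far these samples vary, part of which may be technical.

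As background, the crypt base of the intestine holds stem cells that depend on Wnt signalling. Wnt ligands stabilise beta-catenin, which works with TCF and LEF factors at target genes; colorectal cancers commonly switch this pathway on by losing Apc. Injured or fetal-like intestinal epithelium lowers crypt stem genes and raises others such as Clu, and intestinal identity is held by CDX factors. Liver bile ducts share several keratins and Sox9 with intestinal epithelium, so keratins alone do not tell a metastasis from a duct.

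The gate took 207 cells of Control 11, 38 of Control 25, 209 of IFNa 18, 280 of IFNa 23 and 32 of the combination, which is 3.86%, 4.5%, 3.54%, 5.29% and 0.363% of the analysed cells. Library totals ran from 10464216 to 69856071 UMIs, and the gated cells held 4656187, 1226392, 4153226, 3622623 and 397828 UMIs in the same order of livers. Of the 5 libraries, 398 cell barcodes occurred in 2 or more, and no gated barcode was gated in another library. The share of gated cells did not differ between IFNa and Control in edgeR (log2 ratio 0.08 ± 0.34 SE, adjusted p = 0.905 over 10 cell classes, of which 0 passed, 0%); its sign changed with the gate, and without the cells of clusters 40 and 47 described below it was -0.44 ± 0.30.

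IFNa 23 stood apart from the other livers before any gene was compared. Its gated cells had a median of 3198 UMIs, against 19982 and 24464 in Control and 16929 in IFNa 18. Of its 280 gated cells, 140 lay in clusters 40 and 47, which held 0, 0 and 2 gated cells in Control 11, Control 25 and IFNa 18. Within cluster 47, thinned to 1500 UMIs a cell, the median variance of a gene between cells was 0.995 of that expected from drawing UMIs out of 1 shared profile, with 0.489% of genes above 1.5. The main epithelial cluster of the 4 Control and IFNa livers gave 1.48 to 1.65 with 49.2% to 56.6% above. In cluster 40 the ratio was 1.1, with 9.75% of genes above 1.5. Of the immune clusters of IFNa 23 measured, cluster 37 alone was lower, at 1.06 with 8.29% above. The others ran from 1.16 to 1.35 with 13.1% to 38.9% above. The ratio thus does not set cluster 40 apart from every immune cluster, though it lay below most. The cells of cluster 47 therefore differed from each other by about the noise of sampling, and why was not tested. Results are given with and without clusters 40 and 47 because nearly all of their gated cells came from this liver (54 of 57 and 86 of 86), a choice made after the data were seen.

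Epithelial markers outside the gate (Cdh1, Cldn7, Cldn4, Cldn3 and Elf3) had UMIs in every liver. With Epcam, Krt8 and Krt18, which the gate used, the 8 markers stood at a summed level of 6025 and 7136 CPM (UMIs of a gene relative to all UMIs of the summed cells, on the usual counts-per-megacount scale) in Control and 5717 and 5541 CPM in IFNa. Intestinal markers summed to 1114 and 714 CPM in Control and 1136 and 2585 CPM in IFNa, with Cdx1 at 0 in both Control livers. Cholangiocyte markers summed to 515 and 583 CPM in Control and 398 and 421 CPM in IFNa, with the duct receptor Sctr at 0 in both Control livers. Hepatocyte markers summed to 1.5, 0.815 and 13.5 CPM in Control 11, Control 25 and IFNa 18 and to 153 CPM in IFNa 23. Whether a given cell was tumour or duct was not tested, and the cells are called gated epithelial cells.

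RNA of immune cells was present in the gate and moved with the groups. Neutrophil markers (6 genes, S100a8 and S100a9 among them) summed to 3074 and 4172 CPM in Control against 1178 and 19.3 CPM in IFNa, with Retnlg at 0 in IFNa 23. Macrophage markers summed to 114 and 90.5 CPM in Control, 99.4 CPM in IFNa 18 and 340 CPM in IFNa 23. The leukocyte gene Ptprc had a UMI in 26.6% and 26.3% of gated cells in Control, 23.4% in IFNa 18 and 56.1% in IFNa 23. A T cell receptor beta contig was found in 0% to 5% of gated cells, against 52.5% to 75.3% of T and NK cells outside the gate over the 5 livers. The part of these markers in the results below was not tested. In the 447 gated cells of the main epithelial cluster of Control and IFNa, the neutrophil sum was 194 and 2189 CPM in Control and 85.8 and 20.2 CPM in IFNa.

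All 10 genes were higher in the gated cells than in the other named cells of the same livers (edgeR quasi-likelihood fit with liver as a block, 4 livers), where 73.1% of 14509 genes passed an adjusted p of 0.05 with 34.5% higher and 38.6% lower. Without clusters 40 and 47, 74.6% passed, and in the main epithelial cluster 75.7% did (35.2% higher and 40.5% lower). The 10 of 10 is to be read against that background. The other cells were sorted into classes by clusters built without the 10 listed genes, and no listed gene was among the markers that named them. The gate picked epithelial cells by other epithelial genes, so this contrast describes where the listed genes were read. The log2 differences ran from 2.95 ± 0.58 SE for Ascl2 (edgeR adjusted p = 0.00249) to 9.89 ± 0.45 for Wfdc2 (edgeR adjusted p = 2.76e-06), with a median of 8.50 over the 10 genes and -0.09 over all genes tested. Between them lay Axin2 at 4.25 ± 0.23, Lgr5 at 5.44 ± 0.27, Clu at 7.61 ± 0.26, Cdkn2a at 8.16 ± 0.21, Gpx2 at 8.84 ± 0.40, Krt7 at 8.89 ± 0.40, Cdx2 at 8.95 ± 0.52 and Krt19 at 9.05 ± 0.34. Each gene passed in every alternative in which it was tested, 16 for Ascl2 and 17 for each of the other 9.

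**Figure D1:**
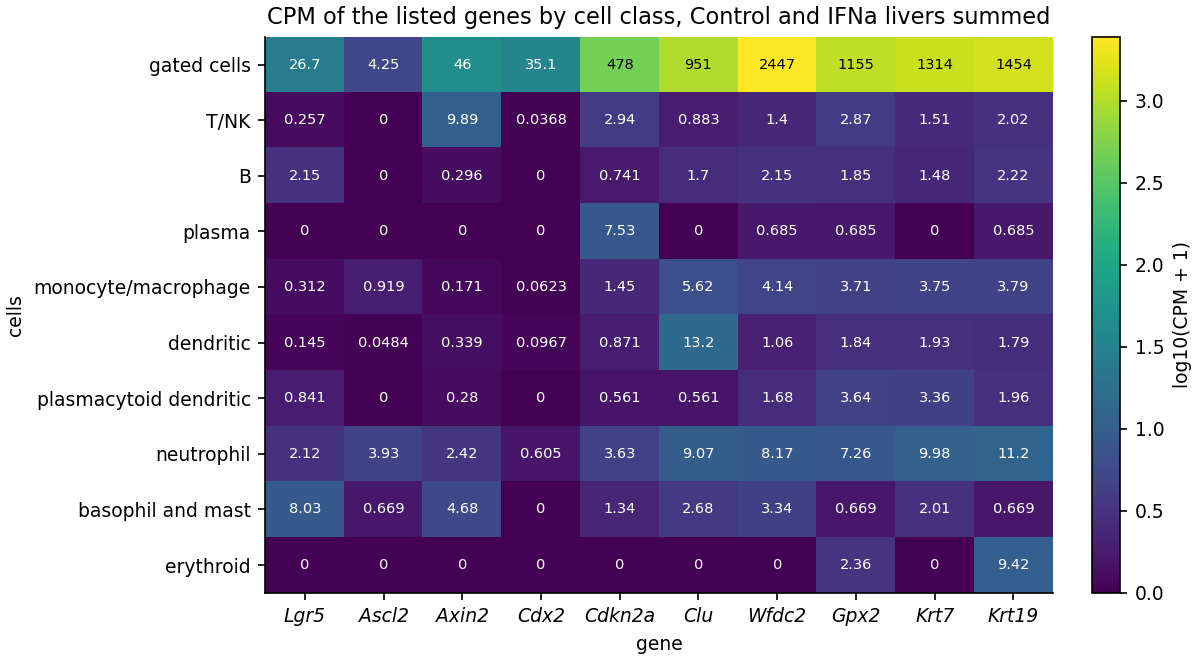
Level of each listed gene (columns) in the gated cells and in 9 other cell classes (rows), as CPM over the summed cells of the Control and IFNa livers; colour is log10(CPM + 1) and the number in each box is the CPM. In these pooled cells the gate holds the highest value of every column; for Ascl2 neutrophils are close to it, and the livers of the gate (3.26 to 6.35 CPM) and of neutrophils (2.68 to 18.6 CPM) overlap.

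Across the other classes the genes fell into those at a like low level everywhere and those with a level of their own. Wfdc2, an epithelial secreted protein, ran from 0 to 8.17 CPM over 9 classes, and Krt7 from 0 to 9.98 CPM, with both highest in neutrophils, the shallowest of the immune classes at a median of 2798 UMIs. Cdx2, the intestinal homeobox factor, had 1 UMI in 3866 T and NK cells and 0 in 3063 B cells. Monocytes and macrophages of IFNa 23 include the ungated cells of cluster 40, and the highest liver of that class gave 7.4 CPM of Wfdc2 and 7.74 CPM of Gpx2.

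Axin2 was also read outside the epithelium. In T and NK cells, which use the Wnt effector Tcf7, it was at 10.9 and 13.1 CPM in Control and 12.3 and 7.54 CPM in IFNa, and 5.72% of 3866 cells had a UMI. In B cells 0.0979% of 3063 cells did, at a median depth of 3917 UMIs against 5987 in T and NK cells. After thinning to 2000 UMIs the shares were 2.09% of 1912 T and NK cells and 0.0532% of 1880 B cells. The highest basophil and mast cell sample reached 49.8 CPM, from 7 UMIs over the 4 livers of that class.

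Clu, Lgr5 and Ascl2 also differed between immune classes. Clu was at 13.2 and 3.44 CPM in dendritic cells of Control 25 and 11 and at 17.2 and 16.5 CPM in those of IFNa 18 and 23, against at most 1.29 CPM in T and NK cells of any liver. Lgr5 was at 5.24 to 12.9 CPM in basophils and mast cells, from 12 UMIs in 8 of 124 cells, and had 27 cells with a UMI among 3063 B cells. Ascl2 was at 2.68 to 18.6 CPM in neutrophils from 13 UMIs, and at 0 UMIs in 3866 T and NK cells and 3063 B cells, which allows up to 0.11 and 0.222 CPM. Counts this small give no order between those classes.

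Between IFNa and Control, 0 of the 12149 genes tested in the gated cells passed an adjusted p of 0.05 in edgeR, which is 0% and includes all 10 listed genes. At an unadjusted p under 0.05, 411 genes were higher (3.38%) and 304 lower (2.5%), none of them listed, and DESeq2 passed 55 of 11834 genes (0.465%), again none listed. Of the 10 genes, 5 had Control and IFNa livers that did not overlap in CPM, against 36% of all genes tested. Of these, Ascl2 was higher in IFNa and Axin2, Wfdc2, Krt7 and Krt19 were lower. Over all genes tested, 25.5% were higher without overlap and 10.5% lower. The median log2 difference of the list was -0.19, against 0.01 over all genes. The count moved with the IFNa livers: without IFNa 18, 214 genes passed (1.68%), and without IFNa 23, 15 did (0.119%), with no listed gene in either. A gate of at least 2 UMIs gave 9 genes (0.0761%) and gated cells without a Ptprc UMI gave 1 (0.00931%), again with none listed.

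**Figure D2:**
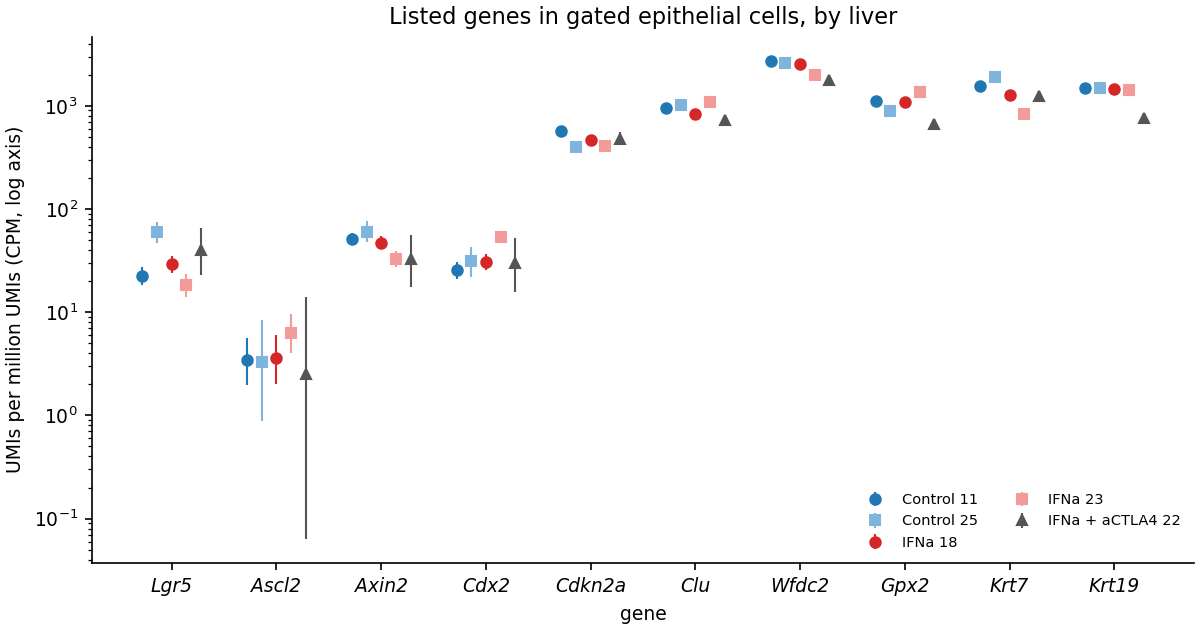
Level of each listed gene in the gated cells of each liver, in CPM on a log axis; bars are exact 95% Poisson intervals that cover counting error only. Krt7 is lower in both IFNa livers than in both Control livers, and among these 4 livers Lgr5 is highest in Control 25.

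**Figure D3:**
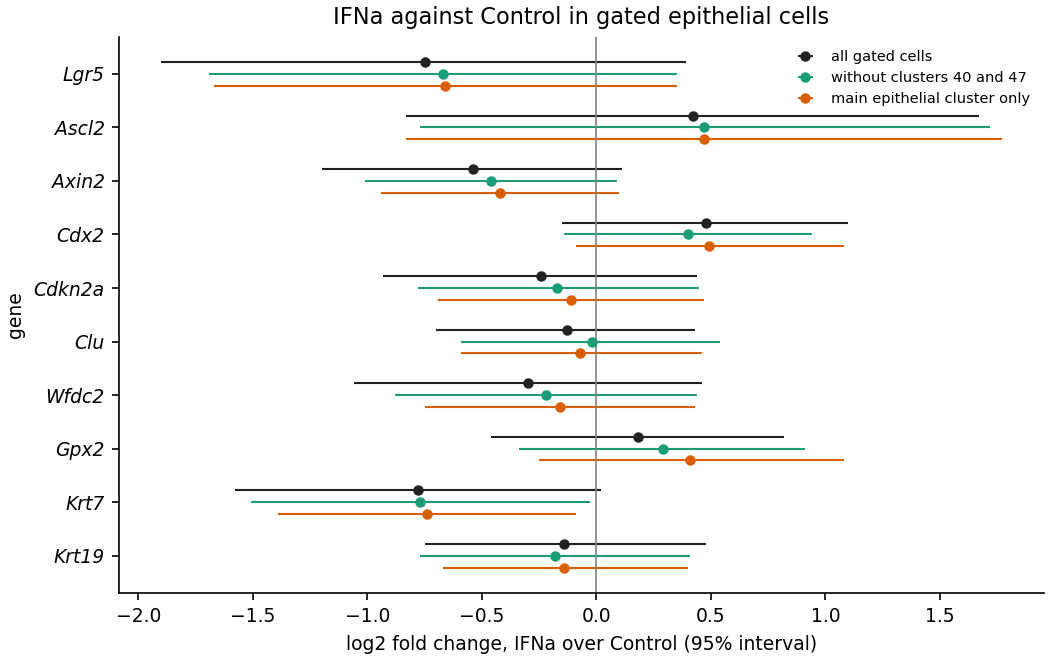
log2 fold change of IFNa over Control for each listed gene with its 95% interval from edgeR (n = 2 livers a group), in all gated cells, without clusters 40 and 47, and in the main epithelial cluster only. Every interval in all gated cells crosses 0, and that of Krt7 lies below 0 in the other 2 sets of cells.

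Lgr5 codes for a receptor of R-spondins that marks crypt stem cells, and lies on chromosome 10 (chr10:115450311-115587780, minus strand, GRCm38 with GENCODE M21, as for the genes below), where A930009A15Rik overlaps it on the other strand. It was at 22.6 and 59.5 CPM in Control 11 and 25, 29.1 and 18.2 CPM in IFNa 18 and 23 and 40.2 CPM in the combination, and 22.2%, 28.9%, 17.2%, 8.21% and 9.38% of gated cells had a UMI. In the combination, 1 cell of the main cluster held 13 of the Lgr5 UMIs. The Control livers lay on both sides of IFNa 18, so the groups overlapped. The log2 difference was -0.75 ± 0.48 (95% interval -1.90 to 0.39, edgeR adjusted p = 0.912), and it was -1.34 without Control 11 and -0.06 without Control 25. In the main epithelial cluster, thinned to 2000 UMIs a cell, 4.14% and 6.25% of Control cells and 3.75% and 2.53% of IFNa cells had a UMI.

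Ascl2, a transcription factor of the Lgr5 stem cell state (chr7:142966829-142969264, minus strand), was the scarcest of the 10. It had 16, 4, 15, 23 and 1 UMIs in Control 11, Control 25, IFNa 18, IFNa 23 and the combination, or 3.44, 3.26, 3.61, 6.35 and 2.51 CPM. Both IFNa livers were above both Control livers, IFNa 18 by less than its counting interval. The log2 difference was 0.42 ± 0.52 (95% interval -0.83 to 1.67, edgeR adjusted p = 0.943), an interval that holds changes in either direction.

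Axin2, a scaffold of the complex that destroys beta-catenin and itself a Wnt target (chr11:108920349-108950783, plus strand, with Gm11670 on the other), was at 51.3 and 60.3 CPM in Control, 47.2 and 32.8 CPM in IFNa and 32.7 CPM in the combination. The groups did not overlap, with IFNa 18 near Control 11 and IFNa 23 below. The log2 difference was -0.54 ± 0.28 (95% interval -1.20 to 0.11, edgeR adjusted p = 0.879). It was -0.46 ± 0.24 without clusters 40 and 47, and over 18 alternatives ran from -0.96 without IFNa 18 to -0.21 without IFNa 23.

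The 3 Wnt genes varied together from cell to cell, so the start regions of Ascl2 and Axin2, the pair found in the RefSeq promoter table used here, are shown (GRCm38.p6, 250 bases before the start, 5′ to 3′ on the gene's strand, chr7:142969265-142969514 for Ascl2 and chr11:108920099-108920348 for Axin2). Windows of 7 of the 10 listed genes were found among 32851 in that table. Both strands were searched for the TCF and LEF core letters CTTTGA or CTTTGT, which 27.6% of all windows hold, and neither window below holds them.
Ascl2: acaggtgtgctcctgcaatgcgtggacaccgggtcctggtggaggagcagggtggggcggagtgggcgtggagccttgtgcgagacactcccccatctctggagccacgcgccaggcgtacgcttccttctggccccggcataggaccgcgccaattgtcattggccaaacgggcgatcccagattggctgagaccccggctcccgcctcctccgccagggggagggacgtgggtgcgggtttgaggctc
Axin2: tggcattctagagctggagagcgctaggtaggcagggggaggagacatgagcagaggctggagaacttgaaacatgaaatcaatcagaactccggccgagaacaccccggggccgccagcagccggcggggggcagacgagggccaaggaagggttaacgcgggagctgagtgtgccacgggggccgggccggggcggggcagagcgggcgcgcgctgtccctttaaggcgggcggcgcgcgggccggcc

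Within the 415 cells of the main epithelial cluster in the 3 livers with at least 50 gated cells (Control 11, IFNa 18 and IFNa 23), Pearson's r of log-normalised values, averaged over livers, was 0.462 for Lgr5 and Axin2 (0.406 to 0.523 over livers), 0.357 for Ascl2 and Axin2 and 0.316 for Lgr5 and Ascl2. Cells share library and depth within a liver, and these values describe the cells with no test. Against the other 7 genes, Lgr5 ran from -0.0998 with Krt7 to 0.111 with Gpx2. The genes nearest to Axin2 over all gated cells were Ahr, a ligand-activated transcription factor (mean r 0.43, and 0.509 in the main cluster), Phlda1 (0.405 and 0.496) and Sox9, a crypt and duct transcription factor (0.396 and 0.509). Lgr5 and Ascl2 had UMIs in too few cells for such a list.

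**Figure D4:**
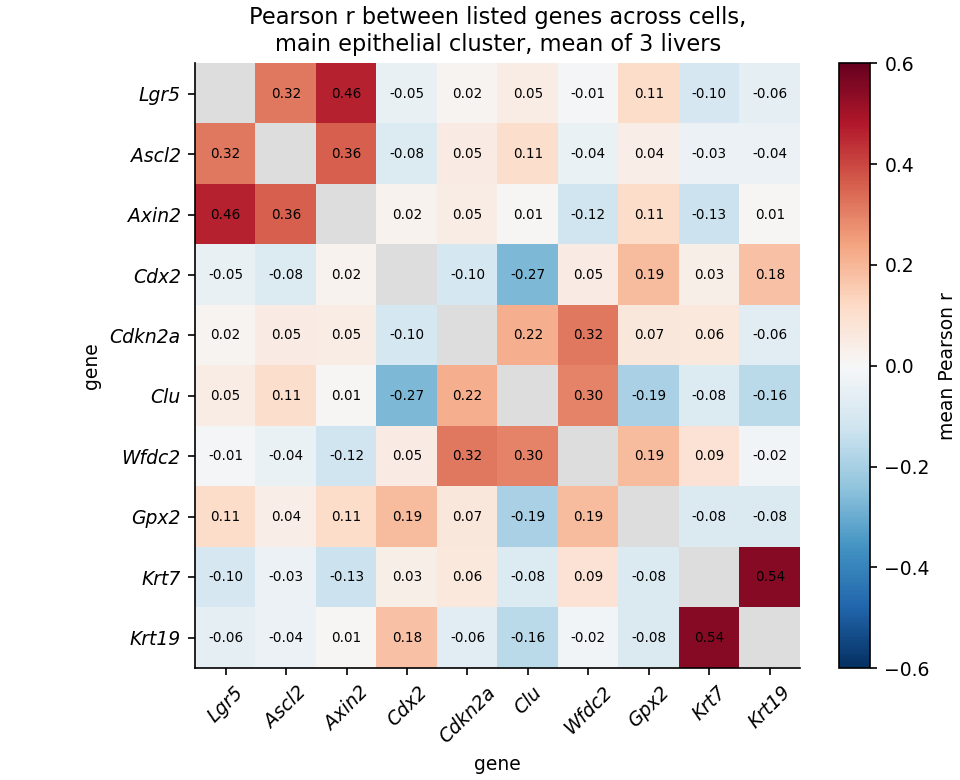
Mean Pearson r across cells of the main epithelial cluster for each pair of listed genes, averaged over Control 11, IFNa 18 and IFNa 23 (colour from -0.6 to 0.6, value in each box). Lgr5, Ascl2 and Axin2 form 1 block of positive values and Krt7 and Krt19 another, and the most negative box is Cdx2 with Clu.

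Most cells with Lgr5 also had UMIs of Clu and Krt7. Of the 46 gated cells with a Lgr5 UMI in Control 11, 42 also had Clu, 45 Krt7 and 15 Cdx2; of the 36 in IFNa 18, the numbers were 32, 34 and 13, and of the 23 in IFNa 23 they were 21, 22 and 8. Over all gated cells Clu had a UMI in 87%, 75.1% and 40.4% and Krt7 in 94.7%, 86.1% and 77.1% of these 3 livers. Depth was not matched in these counts. In the main cluster Clu had a UMI in 91.1%, 88.8% and 83.5% of cells and Krt7 in 98.8%, 97.5% and 95.3%. There 36 of 40, 32 of 33 and 16 of 17 cells with Lgr5 also had Clu. The mean r of Lgr5 in that cluster was 0.0455 with Clu and -0.0998 with Krt7. A gated cell held a median of 6, 6.5, 6 and 4 of the 10 genes in Control 11, Control 25, IFNa 18 and IFNa 23.

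Of 26 listed Wnt target and crypt stem genes, 23 were tested between IFNa and Control and 0 passed. At an unadjusted p under 0.05, 2 were higher and 3 lower, against 3.38% and 2.5% of all genes tested. The median log2 difference of the Wnt and crypt list was 0.10. The most abundant were Cd44, a hyaluronan receptor, at 382 and 633 CPM in Control and 344 and 314 CPM in IFNa (-0.70 ± 0.28, edgeR adjusted p = 0.826), and Myc, the growth regulator, at 165 and 194 CPM in Control and 247 and 211 CPM in IFNa (0.27 ± 0.22, edgeR adjusted p = 0.928). Sox9 was at 182 and 255 CPM in Control and 145 and 163 CPM in IFNa. Olfm4, another crypt stem marker, was at 0.644 and 0 CPM in Control and 0.722 and 13 CPM in IFNa, and Smoc2 at no more than 0.828 CPM in any liver. Sox9, Olfm4 and Smoc2 were picked here after their values were seen.

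Cdx2, the homeobox factor that sets intestinal identity (chr5:147300805-147307270, minus strand), was at 25.6 and 31 CPM in Control, 30.8 and 53.6 CPM in IFNa and 30.2 CPM in the combination. IFNa 23 was the high liver and IFNa 18 lay between the Control livers. The log2 difference was 0.48 ± 0.26 (95% interval -0.15 to 1.10, edgeR adjusted p = 0.901), from 0.16 without IFNa 23 to 1.04 in cells with no Ptprc UMI. Without clusters 40 and 47 IFNa 23 was at 47.9 CPM. The genes nearest to Cdx2 were Lgals4, an intestinal galectin (mean r 0.327, and 0.334 in the main cluster), Areg, a ligand of the EGF receptor (0.326 and 0.323), and Ceacam1, an adhesion molecule (0.32 and 0.351).

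Cdx2 and Clu ran against each other in the cells of the main cluster, at a mean r of -0.268 (-0.389 to -0.167 over the 3 livers). Clu and Gpx2 were at -0.193 and Clu and Krt19 at -0.162, whereas Cdx2 and Gpx2 were at 0.189 and Cdx2 and Krt19 at 0.177.

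Of 20 intestinal identity genes 11 were tested and 0 passed. At an unadjusted p under 0.05, 4 were higher and 0 lower, against 3.38% and 2.5% of all genes. The median log2 difference of the 11 was 0.99, and 0.72 without clusters 40 and 47. Lgals4 was at 873 and 493 CPM in Control and 886 and 2125 CPM in IFNa (0.99 ± 0.45, edgeR adjusted p = 0.878), so 1 IFNa liver was high. Agr2, a protein-folding enzyme of secretory epithelium, was at 82.7 and 59.5 CPM in Control and 113 and 263 CPM in IFNa (1.23 ± 0.37, edgeR adjusted p = 0.694). The goblet cell genes Muc2 and Tff3 were at or below 0.276 CPM in all Control and IFNa livers, whereas Krt20, a keratin of mature enterocytes, was at 3.87 and 2.45 CPM in Control and 2.17 and 51.3 CPM in IFNa, and Vil1, a protein of the brush border, at 15.9 and 12.2 CPM in Control and 19.3 and 75.4 CPM in IFNa. These 4 genes were picked after their values were seen. In IFNa 23 most Krt20 UMIs lay in cluster 47, with 158 UMIs (691 CPM) over its 92 cells, gated or not. The 107 cells of the main cluster in that liver, gated or not, held 37 Krt20 UMIs (13.3 CPM). Vil1 was at 363 CPM in those cells of cluster 47 and at 74.3 CPM in those of the main cluster.

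Cdkn2a codes for the cell cycle inhibitor Ink4a and, from an upstream first exon, for Arf, an activator of p53 (chr4:89274471-89294653, minus strand). It was at 565 and 399 CPM in Control, 467 and 405 CPM in IFNa and 480 CPM in the combination, with a UMI in 91.3% and 94.7% of gated cells in Control and 78.5% and 48.2% in IFNa. In the main cluster thinned to 2000 UMIs a cell, that share was 64.5% and 62.5% in Control and 51.2% and 58.2% in IFNa. In CPM the livers of the groups overlapped, and the log2 difference was -0.24 ± 0.29 (95% interval -0.93 to 0.44, edgeR adjusted p = 0.943), turning to 0.10 without Control 11. In the other named cells of the same livers Cdkn2a was at 0.791 to 1.78 CPM.

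Counts from the 3′ end do not split the Ink4a and Arf transcripts, which share their last exons. RefSeq gives them separate starts (GRCm38.p6, chr4:89294620-89294869 for the upstream and chr4:89282193-89282442 for the downstream window), shown to mark the pair of promoters that this 1 count merges. Capitals mark a match to the antioxidant response element letters TGACNNNGC on either strand, which 10.2% of all 32851 windows hold.
Cdkn2a upstream start: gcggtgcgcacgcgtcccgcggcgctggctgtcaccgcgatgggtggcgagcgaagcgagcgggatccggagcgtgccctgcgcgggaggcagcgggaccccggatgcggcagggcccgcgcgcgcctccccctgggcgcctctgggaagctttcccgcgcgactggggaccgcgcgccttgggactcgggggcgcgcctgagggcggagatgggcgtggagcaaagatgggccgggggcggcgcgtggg
Cdkn2a downstream start: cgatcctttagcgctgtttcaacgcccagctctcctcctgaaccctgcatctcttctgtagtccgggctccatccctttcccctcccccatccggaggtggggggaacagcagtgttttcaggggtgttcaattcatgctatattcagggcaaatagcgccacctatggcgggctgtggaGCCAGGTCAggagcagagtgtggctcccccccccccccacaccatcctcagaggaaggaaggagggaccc

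The genes nearest to Cdkn2a were Wfdc2 (mean r 0.525, and 0.318 in the main cluster), the peroxiredoxin Prdx1 (0.499 and 0.466) and the splicing protein gene Snrpg (0.469 and 0.319). Of 15 genes for cell cycle inhibitors and their partners 14 were tested and 0 passed, with a median of -0.07. At an unadjusted p under 0.05, 0 were higher and 1 lower, against 3.38% and 2.5% of all genes. Ccnd1, the G1 cyclin, was at 223 and 244 CPM in Control and 262 and 226 CPM in IFNa. Of 10 proliferation genes 0 passed, with a median of 0.22. Mki67 was at 101 and 97.8 CPM in Control and 104 and 138 CPM in IFNa. These levels, like those of Cdkn2a, are sums over gated cells, and whether single cells held both was not tested.

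Clu codes for the secreted chaperone clusterin and marks revival stem cells of injured gut (chr14:65968483-65981547, plus strand). It was at 941 and 1009 CPM in Control, 830 and 1083 CPM in IFNa and 724 CPM in the combination. The IFNa livers lay on either side of the Control livers, with a log2 difference of -0.13 ± 0.24 (95% interval -0.70 to 0.43, edgeR adjusted p = 0.964). A UMI was found in 87% and 89.5% of gated cells in Control, 75.1% in IFNa 18 and 40.4% in IFNa 23, whereas in the main cluster thinned to 2000 UMIs it was 63.3% and 59.4% in Control and 52.5% and 62% in IFNa. The genes nearest to it were Fxyd3, a regulator of the sodium pump (mean r 0.551, and 0.44 in the main cluster), Igfbp4 (0.49 and 0.353) and Wfdc2 (0.463 and 0.298).

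Of 20 injury and fetal-like genes 18 were tested and 0 passed. At an unadjusted p under 0.05, 0 were higher and 3 lower, against 3.38% and 2.5% of all genes. The median log2 difference was -0.40, against 0.01 over all genes. Of the 18 estimates 14 were below 0, against 5958 of 12149 over all genes tested. S100a6, a calcium-binding protein, was at 7909 and 6849 CPM in Control and 6238 and 4247 CPM in IFNa (-0.57 ± 0.39, edgeR adjusted p = 0.921). Ly6a, the surface antigen Sca-1, was at 2360 and 1998 CPM in Control, 2569 and 1846 CPM in IFNa and 4137 CPM in the combination (-0.06 ± 0.34, edgeR adjusted p = 0.989). The neutrophil marker sum given above also was lower in both IFNa livers, and its part was not tested.

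Wfdc2, a secreted WAP-domain protein of ducts and other glandular epithelia (chr2:164562413-164568510, plus strand), had the most UMIs of the 10 in each of the 5 livers. It was at 2687 and 2584 CPM in Control, 2554 and 1971 CPM in IFNa and 1772 CPM in the combination. The groups did not overlap, with IFNa 18 just below Control 25, and the log2 difference was -0.30 ± 0.32 (95% interval -1.06 to 0.46, edgeR adjusted p = 0.939). In the main cluster it was at 2861 and 2725 CPM in Control, 2739 and 2539 CPM in IFNa and 2709 CPM in the combination, where the groups overlapped. Over all gated cells, Fxyd3 (mean r 0.59, and 0.425 in the main cluster), Ly6c1 (0.58 and 0.473) and the thioredoxin Txn1 (0.549 and 0.314) were nearest to it. Of the 9 WAP genes 4 were tested and 0 passed, with a median of -1.03. At an unadjusted p under 0.05, 0 were higher and 2 lower, against 3.38% and 2.5% of all genes. Wfdc21 was at 62.9 and 129 CPM in Control and 22.9 and 3.31 CPM in IFNa (-2.84 ± 0.76, edgeR adjusted p = 0.588), and it was at a mean of 56.1 CPM in the other cells. It was also among the leading genes of a neutrophil cluster, and the neutrophil marker sum of the gate was likewise lower in both IFNa livers; its part was not tested.

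Gpx2, the gastrointestinal glutathione peroxidase, which detoxifies peroxides (chr12:76792333-76795554, minus strand), was at 1122 and 887 CPM in Control, 1085 and 1371 CPM in IFNa and 661 CPM in the combination. The groups overlapped, and the log2 difference was 0.18 ± 0.27 (95% interval -0.46 to 0.82, edgeR adjusted p = 0.958). It was -0.26 with cells thinned to 2000 UMIs and -0.04 without Control 25. Fntb lies over the same bases on the other strand.

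The window before the Gpx2 start (chr12:76795555-76795804, minus strand, GRCm38.p6, RefSeq) is shown because it was the only 1 of the windows found for the listed genes with matches to both the TCF and LEF letters and the CDX letters TTTATG, which 10.8% of all 32851 windows hold. Capitals mark the 2 matches; the antioxidant response element letters were not found in this window.
Gpx2: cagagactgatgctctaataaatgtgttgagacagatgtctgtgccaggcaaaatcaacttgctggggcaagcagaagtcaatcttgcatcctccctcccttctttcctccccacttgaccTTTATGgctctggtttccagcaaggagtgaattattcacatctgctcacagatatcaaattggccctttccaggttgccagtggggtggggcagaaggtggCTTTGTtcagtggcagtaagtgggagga

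Across cells of the main cluster Gpx2 was at a mean r of 0.189 with Cdx2 and 0.188 with Wfdc2. With the Wnt genes it was 0.111 for Lgr5, 0.11 for Axin2 and 0.0405 for Ascl2. No link of these values to the letters in the window was tested. The genes nearest to Gpx2 over all gated cells were Faim2 (mean r 0.539, and 0.38 in the main cluster), Pglyrp1, a peptidoglycan recognition protein (0.523 and 0.339), and the ribosomal gene Rps2 (0.521 and 0.2). Of 16 antioxidant genes, mostly targets of NRF2, 15 were tested and 0 passed, with a median of -0.08. At an unadjusted p under 0.05, 0 were higher and 1 lower, against 3.38% and 2.5% of all genes. Txn1 was at 1732 and 1292 CPM in Control and 1606 and 1497 CPM in IFNa.

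Krt7, a keratin of ducts and other simple epithelia (chr15:101411043-101430313, plus strand), had the largest difference of the list. It was at 1571 and 1891 CPM in Control, 1268 and 839 CPM in IFNa and 1252 CPM in the combination. Both IFNa livers and the combination were below both Control livers. The log2 difference was -0.78 ± 0.34 (95% interval -1.58 to 0.02, unadjusted p = 0.0543, edgeR adjusted p = 0.853), so it did not pass over all genes. It was -0.77 ± 0.32 without clusters 40 and 47 and -0.74 ± 0.28 in the main cluster (edgeR adjusted p = 0.734 and 0.727), and over 18 alternatives ran from -1.25 without IFNa 18 to -0.43 without IFNa 23. In the main cluster the 11 cells of the combination were at 2314 CPM, above every other liver.

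The share of main-cluster cells with a Krt7 UMI, thinned to 2000 UMIs a cell, was 85.2% and 81.2% in Control and 76.9% and 78.5% in IFNa. The gene Gm671 overlaps Krt7 on the other strand.

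Krt19, the smallest keratin and a marker of ducts and of intestinal epithelium (chr11:100140810-100148665, minus strand), was at 1482 and 1474 CPM in Control, 1439 and 1428 CPM in IFNa and 754 CPM in the combination. The 4 livers of the comparison were the closest of any listed gene, and although the groups did not overlap the log2 difference was -0.14 ± 0.26 (95% interval -0.75 to 0.48, edgeR adjusted p = 0.967). It was 0.02 in the clusters named epithelial and 0.21 with thinned cells. In the main cluster the combination was at 1610 CPM, among 1521 to 1614 CPM in the others.

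Krt7 and Krt19 varied together from cell to cell, at a mean r of 0.544 in the main cluster (0.465 to 0.593 over the 3 livers). Both were nearest to Krt8 over all gated cells (0.676 and 0.759, and 0.611 and 0.642 in the main cluster), a gate gene that pairs with such type I keratins as Krt18 and Krt19 in filaments. Of 18 duct genes 13 were tested and 0 passed, with a median of -0.19. At an unadjusted p under 0.05, 1 was higher and 2 lower, against 3.38% and 2.5% of all genes. Of 10 epithelial keratins outside the gate 9 were tested and 0 passed, with a median of -0.78. Among these Krt14 and Krt6a, keratins of stratified epithelium picked after their values were seen, were at 262 and 438 CPM and at 102 and 216 CPM in Control, at 208 and 85.7 CPM in IFNa 18, and at 4.14 and 14.1 CPM in IFNa 23.

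The genes split between clusters of the gate in IFNa 23. In its 85 gated cells of the main cluster, Cdx2 (55.7 CPM), Ascl2 (8.01), Clu (1231) and Gpx2 (1808) were above the main cluster of the other Control and IFNa livers. Krt7 (969 CPM), Axin2 (39.7), Wfdc2 (2539), Krt19 (1521) and Lgr5 (22.9) were below it. Its 86 gated cells of cluster 47 had 0 UMIs of Lgr5, Ascl2 and Clu, and 65.3 CPM of Gpx2 against 1808 in the main cluster, but 168 CPM of Cdx2 against 55.7 and 4557 CPM of Krt19 against 1521. Its leading genes were Gsta4, Lypd8, Krt8, Krt19, Lgals4 and Teddm3. Over its 92 cells Krt20 was at 691 CPM, the myeloid gene Lyz2 at 2225 CPM and the granzyme gene Gzma at 1040 CPM, picked after their values were seen. These are values of barcodes that differ by about sampling noise, so they count as 1 profile and not as 86 cells.

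**Figure D5:**
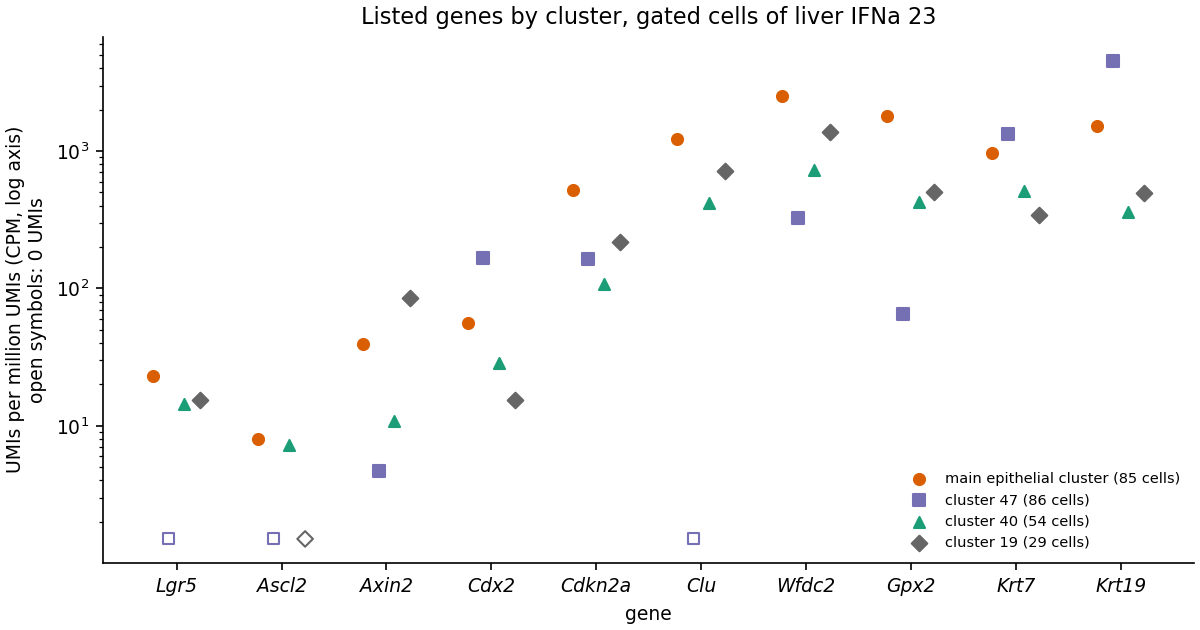
CPM of each listed gene on a log axis in 4 clusters of the gated cells of IFNa 23; open symbols stand for 0 UMIs and are drawn at the bottom. Cluster 47 is the highest of the 4 for Cdx2, Krt7 and Krt19 and has no UMI of Lgr5, Ascl2 or Clu.

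Cluster 40 was led by Il1b, Cxcl15, Wfdc2, Apoe, Krt18, Clu, Cd74, Gpx2, H19 and Arg1, a mix of myeloid and epithelial genes. Its marker score placed it with monocytes and macrophages, so its ungated cells count in that class above, although 4 of its leading genes are epithelial. Its 54 gated cells in IFNa 23 had every listed gene, each below the level of the main cluster. Cluster 19, led by Gm26917 and Lama5, held 81 gated cells over all livers. In its 74 gated cells of Control and IFNa, with a median of 2910 UMIs, Axin2 was at 96.4 CPM against 49.1 in the main cluster, Lgr5 at 36.2 against 29.6, Cdx2 at 9.04 against 36.2 and Gpx2 at 371 against 1301. The cluster 19 values rest on 32, 12, 3 and 123 UMIs. By liver, its Lgr5 was at 60.9, 48.7 and 15.5 CPM in Control 11, IFNa 18 and IFNa 23, from 5, 4 and 2 UMIs. These few UMIs give no order for Lgr5 between the 2 clusters. Clusters were built without the listed genes, but cells are not replicates, so the differences between clusters are descriptions with no test.

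Genes of the interferon response were read in the same cells. Of 20 type I interferon genes, all tested, 17 were higher and 0 lower at an unadjusted p under 0.05 (3.38% of all genes were higher), though 0 passed the adjusted threshold. Their median log2 difference was 1.41, and 1.19 without clusters 40 and 47. Ifi27l2a was at 110 and 149 CPM in Control, 447 and 1012 CPM in IFNa and 1423 CPM in the combination (2.37 ± 0.36, edgeR adjusted p = 0.388), with no overlap of the groups. Bst2, which tethers virus to the cell surface, was at 504 and 446 CPM in Control and 703 and 919 CPM in IFNa (0.66 ± 0.24, edgeR adjusted p = 0.801). Among the MHC class I genes, 10 in all, 4 were higher and 0 lower at an unadjusted p under 0.05, with a median of 0.69; H2-K1 was at 1208 and 1105 CPM in Control and 1305 and 2170 CPM in IFNa. In the other named cells H2-K1 was at a mean of 2292 CPM and Ifi27l2a at 2903 CPM, and the part of RNA from those cells was not tested. In the gate NK markers summed to 32.6 and 6.52 CPM in Control and 74.9 and 203 CPM in IFNa. B cell markers summed to 10.1 and 2.45 CPM in Control and 43.3 and 111 CPM in IFNa, and monocyte markers to 222 and 232 CPM in Control and 268 and 599 CPM in IFNa, so these 3 sums over the whole gate were higher in both IFNa livers. In the main cluster the NK sums overlapped, at 33.8 and 5.51 CPM in Control and 58.3 and 11.1 CPM in IFNa. The B cell sums there were 10.4 and 2.75 CPM in Control and 18.4 and 45.4 CPM in IFNa. The monocyte sums there were 66.4 and 147 CPM in Control and 160 and 172 CPM in IFNa.

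The combination had 1 liver and 32 gated cells, so its values have no test. Its gate held 11 cells of the main cluster, 46.9% of its gated cells had a Ptprc UMI, and plasma cell and monocyte markers summed to 2720 and 2556 CPM, against at most 433 and 599 CPM in any other liver. Over all 32 cells Krt19, Gpx2, Clu, Wfdc2 and Ascl2 were the lowest of the 5 livers, as was Axin2, just below IFNa 23. In the 11 cells of the main cluster Krt19, Gpx2, Clu and Wfdc2 were at 1610, 1123, 919 and 2709 CPM, each within the range of the other 4 livers. Ascl2 was within it too, at 6.17 CPM from 1 UMI. Axin2 was at 37 CPM there from 6 UMIs, below the 39.7 to 59.6 CPM of the other 4.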

How the data were processed

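Single-cell 3′ gene expression (10x v3.1) and T cell receptor libraries of 5 livers were used. The authors deposited UMI counts per gene and cell, for which the submitters' processing notes name Cell Ranger 7.0.1 and the build mm10; the annotation version and the strand setting are not given in the sources used here. Cells under 200 genes or above 15% mitochondrial UMIs were dropped, and predicted doublets were removed at 0.8% per 1000 cells. Cells were clustered with scanpy 1.11.5 (2500 variable genes, 40 components, 20 neighbours, Leiden resolution 2.0) and clusters were named from marker lists. The 10 listed genes and the type I interferon and MHC class I lists, among others, were left out of clustering. Counts were summed per liver over gated cells and tested with edgeR 4.0.16 (quasi-likelihood, TMM, Benjamini-Hochberg over all genes tested, threshold 0.05), with DESeq2 1.42.0 as an alternative. The 4 Control and IFNa livers entered the fits, with 2 livers a group. Intervals and the floor of 3 counts cover counting error only. The edgeR script was tested on simulated data for IFNa against Control with 12001 genes, where it recovered 14.6% of genes changed by 1 on the log2 scale and 79.2% of those changed by 2 (96 genes each) and called 5 unchanged genes. The listed genes and the gene lists were chosen with earlier results of these data known. By rule, the named genes are the 10 listed, the 2 of each list with the highest CPM that are not among the 10, and the 3 genes nearest to each listed gene with a UMI in at least 20% of gated cells. Genes named outside this rule are cluster markers, genes of a cell type list, or said in the text to be picked after their values were seen.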

Additional observations from a re-analysis of the deposited data

How the results depend on the processing

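No listed gene passed the threshold between IFNa and Control under any alternative, and each passed in every alternative of the gate against other cells in which it was tested. The number of genes passing between IFNa and Control was 0, and it was 55 with DESeq2, 9 with a gate of at least 2 UMIs and 1 in gated cells without a Ptprc UMI; leaving out 1 liver gave 0 to 214, with 214 without IFNa 18 and 15 without IFNa 23. The gate against other cells gave 10604 genes, 5762 with thinned cells and 9003 to 10671 with 1 liver left out. The log2 difference of Krt19 was 0.02 in clusters named epithelial and 0.21 with thinned cells, that of Gpx2 was -0.26 with thinned cells and ran from -0.04 to 0.42 with 1 liver left out, and that of Cdkn2a ran from -0.52 to 0.10 with 1 liver left out. The log2 ratio of the share of gated cells (0.08) was -0.23 with Epcam, Krt8 and Krt18 all required, -0.28 with at least 2 UMIs, -0.28 without a Ptprc UMI and -0.03 in clusters named epithelial. In alternatives chosen after seeing the data it was -0.67 in the main cluster and -0.44 without clusters 40 and 47; with 1 liver left out it ran from -0.21 to 0.37. The cause of these changes was not tested. Scaling by library totals only moved the median of all genes from 0.01 to 0.11. With 1 liver left out, the lone liver of a group is assumed to vary like the other group. No paired analysis was possible because the Control and IFNa livers share no sample number. Ascl2 had 4 to 23 UMIs in a Control or IFNa liver, the fewest of the 10 genes.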
